A study of Mus musculus with 20 samples.

Results

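The 10 genes described here encode milk proteins or mark the mammary gland, and they were taken by name: *Csn1s1*, *Csn2*, *Csn3*, *Wap*, *Lalba*, *Wfdc18*, *Ltf*, *Elf5*, *Prlr* and *Areg*. All 10 were found among the 36611 genes of the table, *Wfdc18* under its older symbol *Expi*. The tissue was inguinal white adipose tissue (iWAT), a fat pad under the skin that in a female mouse surrounds the ducts of a mammary gland. Its RNA was taken from 20 female mice, 5 in each of 4 groups, labelled C57BL/6. By the methods a floxed line on C57BL/6 N Tac was crossed with a Cre line on C57BL/6 J. Both *Ad-Tmem120a*-/- mice and their control littermates were fed either a low fat diet (LFD) with 10.5% fat or a high fat diet (HFD) with 58% fat. They were 6 months old and had eaten that diet for 15 weeks. In *Ad-Tmem120a*-/- mice a Cre recombinase under the *Adipoq* promoter removes floxed exons of *Tmem120a* in mature adipocytes. The control littermates carried the floxed alleles without Cre, although the labels call them wild type, so floxed alleles were shared by all 4 groups and Cre expression went together with the knockout.

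The mammary epithelium is a tree of ducts with luminal cells around the lumen and contractile basal cells outside. In pregnancy the hormone prolactin binds its receptor, encoded by *Prlr*, and the kinase JAK2 then activates STAT5, which switches on milk protein genes. ELF5 is an ETS transcription factor of the luminal progenitors that form the milk-secreting alveoli, and amphiregulin, encoded by *Areg*, is the EGF receptor ligand through which oestrogen drives growth of the ducts. The caseins (*Csn1s1*, *Csn2*, *Csn3*), whey acidic protein (*Wap*) and alpha-lactalbumin (*Lalba*) are proteins of milk, *Wfdc18* encodes a small secreted protein of the same family as whey acidic protein, and *Ltf* encodes lactoferrin, an iron-binding protein of milk that neutrophils also store in their granules.

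Values are TPM, a share of the library's transcripts corrected for length, or log2 fold changes of counts from edgeR. The estimated counts of a library summed to between 54605101 and 92387737. *Tmem120a* averaged 119 TPM in control and 51.6 TPM in *Ad-Tmem120a*-/- mice on HFD, and 85.4 and 41.5 TPM on LFD, although its adjusted p in edgeR's quasi-likelihood test was 0.173 and 0.929. Cells other than adipocytes keep the gene. The tissue label held in all libraries, with summed TPM of 9 adipocyte genes of at least 15200. General epithelium (15 genes) was also present in all 20 libraries, at 116 to 429 summed TPM. Some libraries stood apart. Control LFD replicate 5 held 3221 summed TPM of 10 skeletal muscle genes, the hair and epidermis genes reached 187 TPM in knockout LFD replicate 7 and 88.5 TPM in knockout HFD replicate 18, and control LFD replicate 1 held 8.39 summed TPM of 10 lymph node genes.

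Of the genes for caseins and whey proteins, *Csn3* was abundant in every mouse and *Csn1s1*, *Csn2*, *Wap* and *Lalba* were at or near 0 in most. *Csn3* encodes kappa-casein, which keeps casein micelles in solution. It lay between 62.8 and 359 TPM over the 20 libraries, with a median of 219.5 TPM, and its mean was above that of 99% of all genes in the table. *Csn2* encodes beta-casein. It had no count in 8 libraries and a median of 0.294 TPM. *Csn1s1*, for alpha-s1-casein, had no count in 13 libraries and its median was 0 TPM. *Lalba* encodes the subunit that lets galactosyltransferase make lactose. It reached at most 0.805 TPM and had no count in 9 libraries. *Wap* had 5 counts in control LFD replicate 2, which is 0.220 TPM, and none in the other 19 libraries, where a count of 0 allows up to 3 counts.

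**Figure D1:**
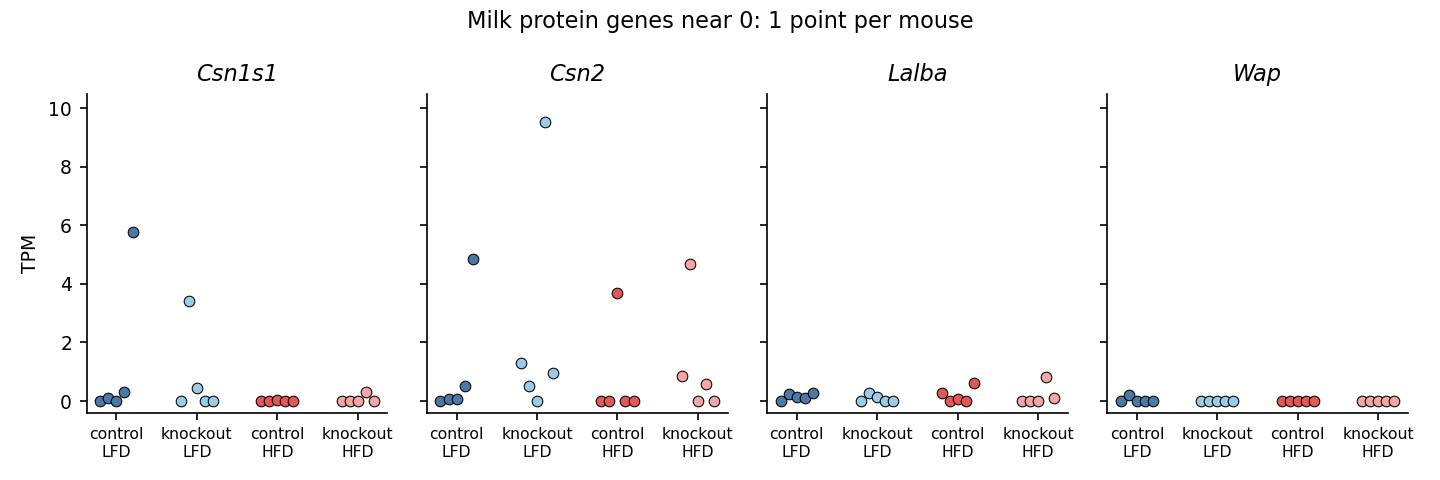
TPM of *Csn1s1*, *Csn2*, *Lalba* and *Wap* in each library (1 point per mouse, 5 per group, linear axis). Most points sit at or near 0, and the few above 3 TPM are single mice in a group, up to 9.53 TPM for *Csn2* in knockout LFD replicate 9.

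Where *Csn1s1* or *Csn2* was found, it was in single mice. *Csn1s1* stood at 5.77 TPM in control LFD replicate 5 and at 3.40 TPM in knockout LFD replicate 7, and in no other library above 0.455 TPM. *Csn2* stood at 9.53 TPM in knockout LFD replicate 9, 4.85 TPM in control LFD replicate 5, 4.67 TPM in knockout HFD replicate 18, 3.68 TPM in control HFD replicate 13 and 1.29 TPM in knockout LFD replicate 6, and below 1 TPM elsewhere. The libraries high for one casein were thus not always those high for the other: knockout LFD replicate 9 had no count of *Csn1s1*. Both libraries high for *Csn1s1* were among the lowest for *Areg*, at 8.16 TPM in control LFD replicate 5 and 2.48 TPM in knockout LFD replicate 7. Control LFD replicate 5 was also the library with the most muscle RNA and knockout LFD replicate 7 that with the most hair and epidermis RNA, whose part in these values was not tested.

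The contrast between *Csn3* and the other caseins was found within a single gene cluster. In NCBIM37, the assembly of the deposited files, *Csn1s1* lies on chromosome 5 at chr5:88095249-88111598 on the plus strand, *Csn2* at chr5:88121647-88128446 on the minus strand and *Csn3* at chr5:88354604-88361690 on the plus strand. These 266 kb hold 10 annotated genes. *Csn1s2a* and *Csn1s2b*, which encode further calcium-sensitive caseins, were at most at 1.72 and 0.316 TPM. *Odam*, a gene of the enamel organ and other epithelia, had a count in 1 library, and the remaining 4 genes had none. The calcium-sensitive caseins are related to each other, whereas *Csn3* is of different origin and is their neighbour by position. Of the *Csn3* level, 94.9% came from 1 transcript, *Csn3-001*, and the 3 protein-coding transcripts share a coding sequence of 546 bases, for 181 residues.

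Promoters of 4 members are shown because STAT5 and ELF5 are the factors by which the milk protein genes are known to be switched on. RefSeq windows (GRCm38.p6) were given for 9 of the 10 members, 12 windows in all, and the 250 bases before each start were searched. The palindrome TTCNNNGAA, which STAT5 factors bind, was found in 3 of the 12 windows, against 7.02% of 32851 windows in the table. It begins 100 bases before the start of *Csn1s1*, 93 before that of *Csn2* and 110 before one of the starts of *Prlr*. The ETS core GGAAGT, searched on both strands, was found in 4 of the 12 windows, against 19.7% of all. It begins 126 bases before *Areg* and 193 before *Wfdc18*, on the minus strand, and 107 before *Wap* and 137 before another start of *Prlr*, on the plus strand. A match describes letters only. The stretches up to the start, read 5′ to 3′ on the strand of the gene, have the matches in capitals, with the *Wfdc18* match as the reverse complement of GGAAGT.
*Csn1s1*, chr5:87666078-87666207, plus strand: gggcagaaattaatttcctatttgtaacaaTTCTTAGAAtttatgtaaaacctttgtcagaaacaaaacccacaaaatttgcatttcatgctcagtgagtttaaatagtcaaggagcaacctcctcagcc
*Csn2*, chr5:87699426-87699555, minus strand: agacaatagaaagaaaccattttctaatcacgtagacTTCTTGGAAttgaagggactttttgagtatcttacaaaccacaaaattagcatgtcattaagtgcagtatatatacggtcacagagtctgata
*Wfdc18*, chr11:83708804-83709003, plus strand: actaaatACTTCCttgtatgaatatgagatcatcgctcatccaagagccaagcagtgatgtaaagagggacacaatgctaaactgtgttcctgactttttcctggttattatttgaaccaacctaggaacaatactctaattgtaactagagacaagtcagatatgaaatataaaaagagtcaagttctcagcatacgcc
*Prlr*, chr15:10223776-10223905, plus strand: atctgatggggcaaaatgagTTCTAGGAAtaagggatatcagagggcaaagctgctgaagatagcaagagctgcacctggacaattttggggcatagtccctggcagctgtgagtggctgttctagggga
The 3 genes with the palindrome differed in level: *Csn1s1* and *Csn2* were near 0 in most mice, and *Prlr* was at 39.7 TPM or more in all.

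*Wfdc18* and *Elf5* fell on HFD in control mice. *Wfdc18* lies at chr11:83522517-83524850 on the plus strand of NCBIM37. In control mice on LFD it measured 80.1, 125, 82.6, 149 and 81.0 TPM. In control mice on HFD it measured 57.1, 47.1, 64.1, 40.2 and 19.2 TPM. All 5 mice on HFD thus lay below all 5 on LFD, and the groups did not overlap. The fold change was -1.35 ± 0.237 (log2, SE, n = 5 per group) with an adjusted p of 0.00911 in edgeR's quasi-likelihood test, and the two-sided exact permutation test of log2(TPM + 1) gave p = 0.00794, the smallest that 5 against 5 mice allow. *Elf5* lies at chr2:103251845-103291146 on the plus strand. It measured 9.36, 15.2, 8.62, 9.999 and 20.6 TPM on LFD and 5.18, 4.80, 6.18, 9.95 and 6.07 TPM on HFD. Control HFD replicate 14 lay within the LFD range, and the other 4 mice on HFD lay below it. *Elf5* fell by 1.19 on the log2 scale (SE 0.292). Its adjusted p was 0.0403 in edgeR and its exact permutation p 0.0238. Without control HFD replicate 12 the adjusted p of *Elf5* was 0.102, with a fold change of -1.13.

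**Figure D2:**
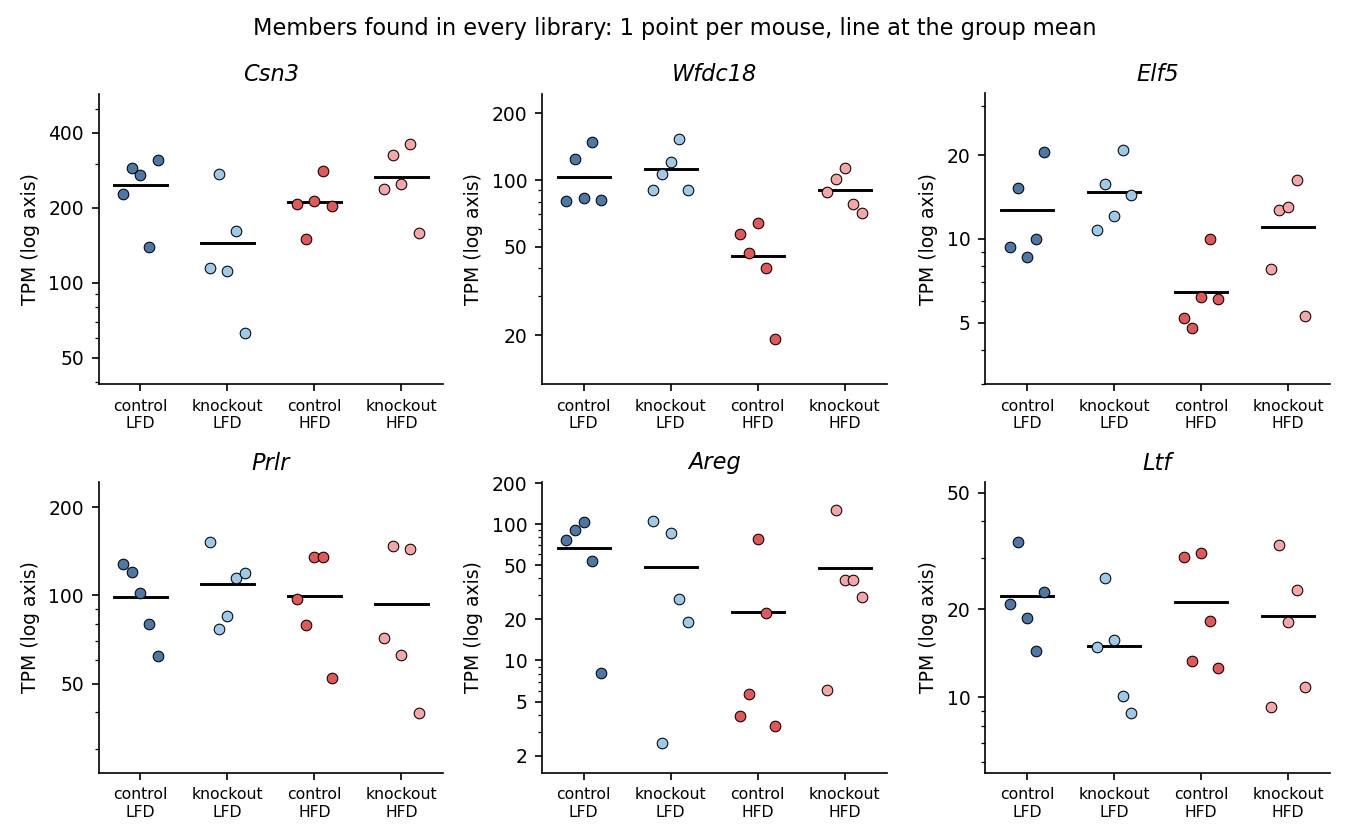
TPM on a log axis of the 6 members found in every library (1 point per mouse, 5 per group, line at the group mean). *Wfdc18* in control mice on HFD, at 19.2 to 64.1 TPM, lies below all mice of the other groups, which start at 71.1 TPM, while *Areg* spreads from 2.48 to 128 TPM.

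Of the 10 members, 8 passed the limit of a mean of 0.5 TPM in this comparison. *Csn1s1* passed it only through control mice on LFD, where it is high, and is left out of the count. Of the other 7, 2 were called, both lower on HFD, where over all 15311 genes tested 9.32% were called and 4.9% were called lower. The median log2 fold change of the 7 was -0.90, against -0.04 over all genes. That median is the value of *Csn2*, which was near 0 in most mice. Its SE was 1.83, and it ran from -8.33 to -0.58 with 1 library left out. For *Csn1s1*, the counts were 0, 5, 0, 16 and 281 on LFD and 0, 0, 2, 0 and 0 on HFD. Taking 3 counts per library for the mice on HFD, it was at least 21.3-fold lower, and at least 1.91-fold lower without control LFD replicate 5, which held the 281 counts. Its adjusted p in edgeR was 0.0738, a call that was lost when any of the 5 control mice on HFD was left out, with adjusted p up to 0.182. Without control LFD replicate 5 it did not pass the limit. The exact permutation p of *Csn1s1* was 0.167, and 0.0476 without control LFD replicate 1 or 3, both at 0 TPM. With other mice left out it was up to 0.325. *Wap* and *Lalba* did not pass, at exact permutation p of 1 and 0.833.

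The other members were not called. *Areg* averaged 66.7 TPM on LFD and 22.7 TPM on HFD (log2 fold change -1.83 ± 0.887, SE, adjusted p = 0.27 in edgeR). *Csn3* stood at -0.43, *Prlr* at -0.37, *Ltf* at -0.28 and *Csn2* at -0.90 on the log2 scale, with adjusted p from 0.322 to 0.842 in edgeR. On log2(TPM + 1), where the median of all genes was 0.13 higher on HFD, *Prlr* differed by -0.01.

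**Figure D3:**
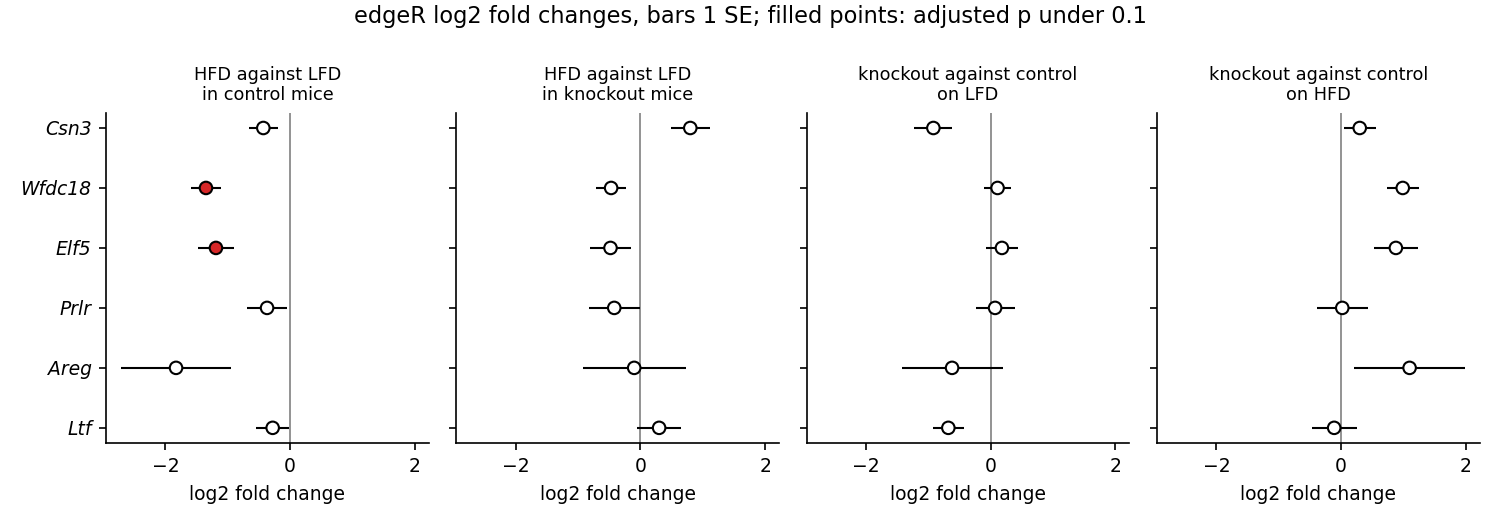
edgeR log2 fold changes (points, bars 1 SE) of 6 members in 4 comparisons, with 5 mice per group and filled points where the adjusted p was under 0.1. The filled points are *Wfdc18* at -1.35 and *Elf5* at -1.19 for HFD against LFD in control mice, and in knockout mice the same genes stand at -0.47 and -0.48, unfilled.

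Over all genes tested in control mice 4.9% were called lower on HFD. Of 10 luminal progenitor genes 4 were called lower as well and none higher. These were *Ehf*, an epithelial ETS factor (31.1 ± 6.85 TPM on LFD and 15.8 ± 3.71 TPM on HFD, SD, n = 5), *Kit*, the receptor tyrosine kinase of these progenitors (18.2 ± 4.38 and 10.4 ± 2.45 TPM), *Lcn2*, for lipocalin 2 (64.5 ± 21.7 and 41.8 ± 9.76 TPM), and *Rspo1*, a Wnt agonist (1.03 ± 0.854 and 0.362 ± 0.0930 TPM). *Lcn2* stands in 3 of the lists. *Rspo1*, under 0.5 TPM on HFD, passed the limit only through the mice on LFD, so it could only be called lower. Leaving out each mouse in turn, between 2 and 4 of the 10 fell, with 2 without control HFD replicate 11, 12 or 15 or control LFD replicate 4. *Ehf* and *Kit* stayed called in all 10 of these fits. The median log2 fold change of the list was -0.75. Of 15 general epithelium genes 3 fell, *Epcam* (-0.70), *Grhl2* (-0.83) and *St14* (-1.08), which encode an adhesion molecule, an epithelial transcription factor and a membrane protease, and 0 did without control HFD replicate 12 or control LFD replicate 2 or 3. The keratins with the highest level did not pass, *Krt19* at -0.27 and *Krt18* at -0.18 (adjusted p = 0.731 and 0.813 in edgeR). Of 12 basal and myoepithelial genes 0 were called in edgeR, with 2 at an unadjusted p under 0.05, while DESeq2 called 1 and limma 0. Over all genes 3166 of 15311 were at an unadjusted p under 0.05 in edgeR. The median log2 fold change of the 12 was -0.34, against -0.04 over all genes. The 2 of highest level went the other way, *Acta2* for smooth muscle actin at 0.35 and *Oxtr* for the oxytocin receptor at 0.69. In bulk tissue fewer cells of a type and less RNA per cell cannot be told apart.

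Against the 4.9% of all genes called lower on HFD in control mice, other milk and secretory genes fell as follows. Of 20 such genes 13 were tested, and 3 fell: *Muc15* and *Btn1a1*, for a mucin and for butyrophilin of the milk fat globule, and *Lcn2*. *Muc15* averaged 40.8 ± 12.5 TPM on LFD and 20.6 ± 5.70 TPM on HFD (SD, n = 5). *Btn1a1* averaged 8.87 ± 4.82 and 4.56 ± 1.48 TPM. Without control HFD replicate 11, 12 or 15 or control LFD replicate 2, 3 or 5 only 1 of the 13 fell. The 2 genes of highest level, *Trf* for transferrin and *Plin2* for the lipid droplet protein perilipin 2, stood at -0.01 and 0.52 on the log2 scale and were not called.

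Muscle genes moved with the same contrast. Skeletal muscle genes summed to between 7.23 and 3221 TPM in control mice on LFD and between 6.91 and 49.7 TPM on HFD, and 9 of 10 fell, from -3.65 for *Acta1* to -6.91 for *Myh4*, with *Tnnt3* at -6.15 and *Tnni2* at -5.72. *Atp2a1* and *Actn3*, at 0.358 and 0.378 TPM on HFD, passed the limit of 0.5 TPM only through the mice on LFD. Without control LFD replicate 5, or without control HFD replicate 11, 13, 14 or 15, none of the 10 was called lower. Without control LFD replicate 5 *Wfdc18* stood at -1.44 (adjusted p = 0.0141) and *Elf5* at -0.97 (adjusted p = 0.092) in edgeR. Epidermis and hair genes overlapped, with sums of 3.93 to 19.9 TPM on LFD and 2.91 to 11.3 TPM on HFD, and 1 of 5 tested fell, *Krt10* (-1.55), for a keratin of the suprabasal epidermis. The call was lost in 8 of 10 fits with 1 of these mice left out. In these 10 libraries *Sbsn* reached 5.81, *Krt10* 4.60 and *Krtdap* 4.30 TPM and the other 9 genes of the list at most 2.21 TPM, with no count of *Krt2* in 8 libraries. Of 8 stroma genes *Pdgfra* (-0.72) and *Col1a1* (-0.90) fell and *Cdh5* (0.66) rose, while *Dcn* (-0.25) and *Col3a1* (0.16) were not called. Of 9 adipocyte genes only *Lep*, for leptin, was called, at 2.10, with *Fabp4* at 0.15 and *Cfd* at -1.20. Over all genes tested in this contrast 9.32% were called. The part of these lists in the member results was not tested.

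Set against the summed general epithelium genes in the same library, *Wfdc18* kept its order. That sum follows its most abundant genes, the keratins *Krt19* (99.1 TPM on LFD and 93.3 TPM on HFD in control mice) and *Krt18* (67.2 and 69.7 TPM). It is thus not a direct measure of the amount of epithelium. The summed TPM of the general epithelium averaged 316 ± 79.0 in control mice on LFD and 295 ± 125 on HFD (SD, n = 5). *Wfdc18* amounted to between 24.3% and 41.8% of that sum on LFD and to between 12.9% and 20.4% on HFD. These ranges do not overlap either, and the difference in log2 of the rescaled TPM was -1.03 (exact permutation p = 0.00794). *Elf5* amounted to 2.54% to 9.65% on LFD and 1.34% to 5.22% on HFD, and its difference of -0.67 had an exact permutation p of 0.183.

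**Figure D4:**
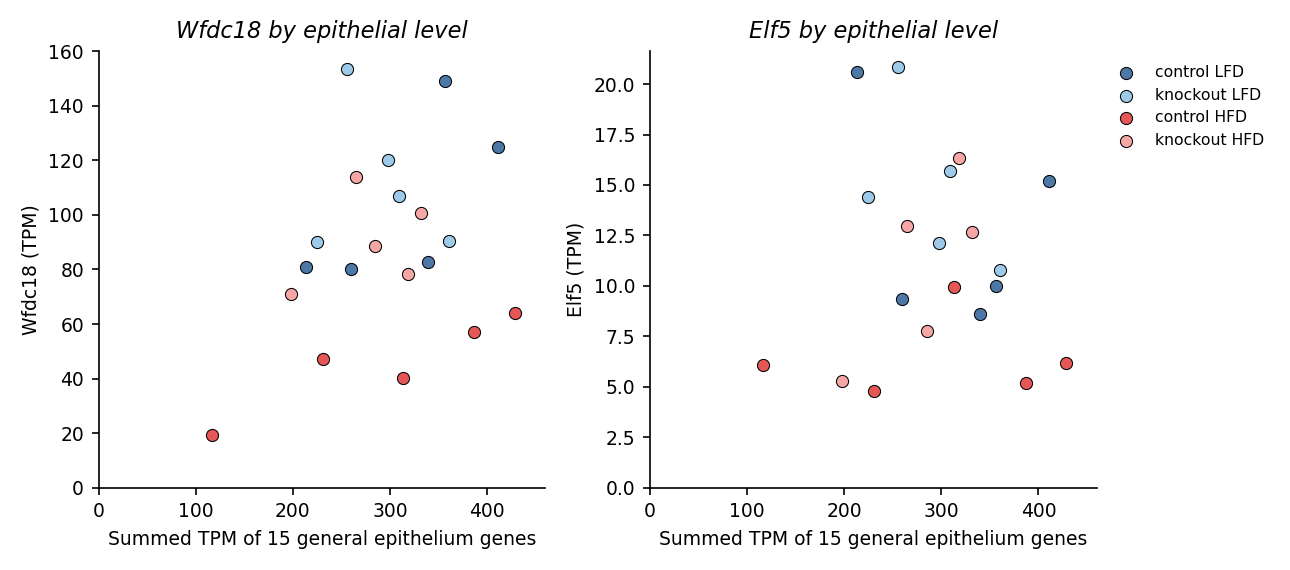
TPM of *Wfdc18* and *Elf5* against the summed TPM of 15 general epithelium genes in each of 20 libraries, coloured by group (linear axes). *Wfdc18* in control mice on HFD runs along the bottom of the cloud at 12.9% to 20.4% of the epithelium sum, and the lowest library in epithelium, control HFD replicate 15 at 116 TPM, is also the lowest in *Wfdc18* at 19.2 TPM.

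In *Ad-Tmem120a*-/- mice on HFD, *Wfdc18* measured 88.5, 101, 114, 78.4 and 71.1 TPM, above all 5 control mice on that diet. The fold change against control was 0.99 ± 0.255 (log2, SE, n = 5 per group). Its adjusted p in edgeR was 0.458, so it was not called, while DESeq2 gave 0.0482. The exact permutation test of this gene alone gave p = 0.00794, and with *Wfdc18* set against the epithelium sum, where it amounted to 24.6% to 43.0%, it gave the same p. *Elf5* measured 7.77, 12.7, 12.99, 16.3 and 5.27 TPM in these mice and overlapped the control mice (0.88 ± 0.358, adjusted p = 0.999 in edgeR, exact permutation p = 0.0714). With 1 mouse left out the exact permutation p of *Elf5* ran from 0.0238, without knockout HFD replicate 21, to 0.151. None of the 7 members tested was called in edgeR, where 0.00657% of 15228 genes were. At an unadjusted p under 0.05 there were 2 of the 7, *Wfdc18* and *Elf5*, and 709 of the 15228 genes. DESeq2 called 1 of the 7 and limma none.

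Other values differed between these 2 groups as well. Of the lists, skeletal muscle genes on HFD summed to 40.6 to 1412 TPM in knockout mice against 6.91 to 49.7 TPM in control mice, neutrophil granule genes, *Lcn2* included, to 83.5 to 118 against 46.8 to 69.4 TPM, and epidermis and hair genes to 5.85 to 88.5 against 2.91 to 11.3 TPM. General epithelium summed to 198 to 332 TPM against 116 to 429 TPM, and overlapped. Of 129 genes of the other 12 lists that were tested, 0 were called in edgeR, with 25 at an unadjusted p under 0.05, while DESeq2 called 13 and limma 0. Of the 13, 9 were skeletal muscle genes. Over all genes 709 of 15228 were at an unadjusted p under 0.05 in edgeR, and DESeq2 called 100 of 14828. *Ehf* stood at 0.96 and *Lcn2* at 0.74, at adjusted p of 0.63 and 0.458. The part of muscle or skin RNA in the *Wfdc18* difference was not tested.

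The order of *Wfdc18* over the 4 groups ran from knockout LFD (112 ± 26.3 TPM) over control LFD (104 ± 31.7 TPM) and knockout HFD (90.5 ± 17.1 TPM) to control HFD (45.6 ± 17.3 TPM, SD, n = 5). The first 3 overlapped with their neighbours, and the exact permutation p was 0.571 between the genotypes on LFD and 0.151 between the diets in knockout mice. *Elf5* had the same order, at 14.8 ± 3.90, 12.8 ± 5.08, 11.01 ± 4.43 and 6.44 ± 2.05 TPM. The difference of the genotype effects on HFD and on LFD was 0.87 ± 0.349 for *Wfdc18* and 0.69 ± 0.457 for *Elf5* (log2, SE). In edgeR 0 of 8 members tested were called for that difference, and 0% of 15574 genes were. At an unadjusted p under 0.05 were 2 of the 8 members and 560 of the 15574 genes. DESeq2 and limma called none of the members. The exact permutation p, with genotypes exchanged within each diet, was 0.0647 for *Wfdc18* and 0.378 for *Elf5*, so a difference between the diets in the effect of the knockout was not shown for either. For *Wfdc18* the exact permutation p fell to between 0.0286 and 0.0476 when control LFD replicate 1, 3 or 5, knockout LFD replicate 9 or control HFD replicate 13 was left out. With other mice left out it was up to 0.13.

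*Csn3* ran in a different order. It measured 227, 289, 270, 139 and 310 TPM in control mice on LFD and 115, 274, 111, 162 and 62.8 TPM in knockout mice on LFD. On HFD it measured 206, 150, 212, 281 and 202 TPM in control mice and 238, 325, 250, 359 and 158 TPM in knockout mice. Knockout mice were thus mostly below control mice on LFD, with knockout LFD replicate 7 and control LFD replicate 4 as the exceptions, and overlapped with them on HFD. The fold change was -0.92 ± 0.303 on LFD (log2, SE, adjusted p = 0.929 in edgeR, exact permutation p = 0.0714) and 0.30 ± 0.255 on HFD (adjusted p = 0.999 in edgeR, exact permutation p = 0.254). The difference between these effects was 1.20 ± 0.414, at an adjusted p of 0.9999 in edgeR, and the exact permutation test of *Csn3* alone gave p = 0.0239. Without knockout LFD replicate 7 or control LFD replicate 4 the exact permutation p of *Csn3* on LFD was 0.0238 and 0.0397. With other mice left out it was up to 0.127. On LFD 0 of 8 members tested were called in edgeR, DESeq2 and limma, and edgeR called 0.00636% of 15717 genes. At an unadjusted p under 0.05 in edgeR were 2 of the 8, *Csn3* and *Ltf*, and 803 of the 15717 genes.

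In knockout mice *Csn3* averaged 145 ± 80.2 TPM on LFD and 266 ± 78.9 TPM on HFD (SD, n = 5). The fold change was 0.80 ± 0.317 (log2, SE, adjusted p = 0.177 in edgeR, exact permutation p = 0.0556). DESeq2 called it at an adjusted p of 0.0803, and edgeR did without knockout LFD replicate 7, at 0.0686. The exact permutation p of *Csn3* was 0.0238 without that library and 0.0397 without knockout HFD replicate 21. With other mice left out it was up to 0.103, and the adjusted p in edgeR was up to 0.347. None of the 7 members tested was called in edgeR in knockout mice, with 1 at an unadjusted p under 0.05, against 3115 of 15705 genes. Over all 15705 genes 9.4% were called, and with only 7 members a count of 0 is near that share. DESeq2 called 1 and limma none. In that comparison *Wfdc18* stood at -0.47 and *Elf5* at -0.48, at adjusted p of 0.308 and 0.46. In edgeR, whether the diet effect on *Wfdc18* or *Elf5* differs between genotypes is the same test as that of the genotype effects between diets. Its result is given with the order of the groups. The exact permutation test exchanged genotypes within each diet, and diets were not exchanged within genotypes. Of the luminal progenitor genes *Rspo1* fell (-2.09) and *Aldh1a3*, for a retinaldehyde dehydrogenase, rose (0.76) in knockout mice on HFD. With each of these 10 mice left out in turn, the call of *Rspo1* was lost 3 times (without knockout LFD replicate 9 or knockout HFD replicate 18 or 21) and that of *Aldh1a3* 7 times, and kept only without knockout LFD replicate 7 or 9 or knockout HFD replicate 21. Of the general epithelium genes 0 were called there in edgeR, with 2 at an unadjusted p under 0.05, and of the basal genes 0, with 1. DESeq2 called 0 and 1 of them and limma none.

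*Prlr* was one of the most abundant members, and it did not pass the test in any comparison. It lies at chr15:10106993-10303504 on the plus strand. It ranged from 61.9 to 128 TPM in control mice on LFD (median 102), from 76.6 to 153 TPM in knockout mice on LFD (median 115), from 52.2 to 135 TPM in control mice on HFD (median 97.2) and from 39.7 to 148 TPM in knockout mice on HFD (median 71.6). All 4 groups overlapped. The fold changes of knockout against control were 0.02 ± 0.408 on HFD and 0.07 ± 0.314 on LFD (log2, SE), the first with the opposite sign, -0.19, on log2(TPM + 1). Adipocytes as well as mammary epithelium are known to make the receptor. The receptor exists as a long form, which signals through STAT5, and as short forms with little of the part inside the cell. The transcript with the longest coding sequence, for 608 residues, took between 46.0% and 72.5% of the *Prlr* TPM in a library. The 3 complete protein-coding transcripts for 292 to 310 residues together took between 2.46% and 39.6%. The transcript of the long form was at the higher level in all 20 libraries, by 1.16 to 24.8 times. How Salmon divides reads between transcripts that share exons adds an error that these values do not show.

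**Figure D5:**
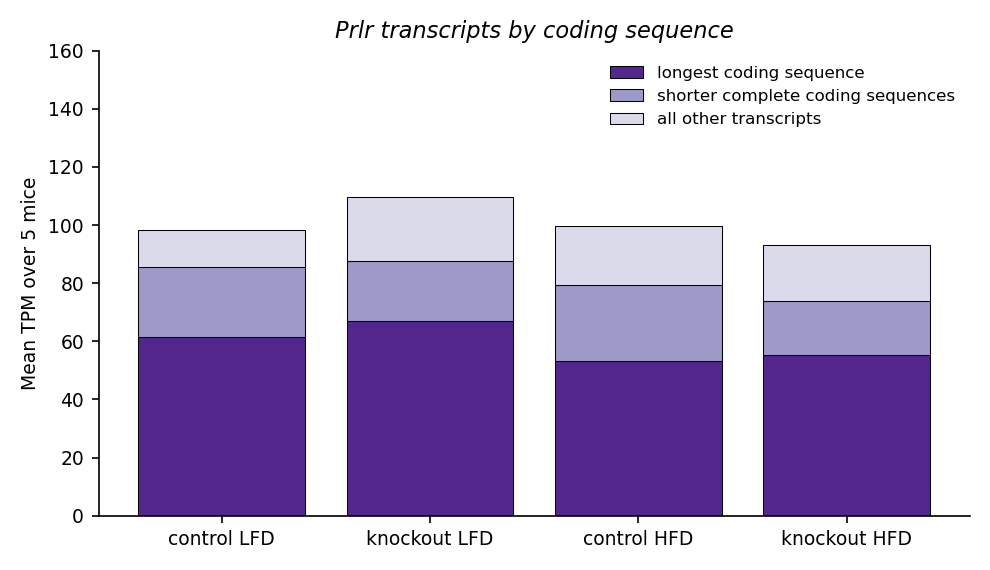
Mean TPM of *Prlr* over 5 mice in each group, split into the transcript with the longest coding sequence, the 3 shorter complete ones and the remaining transcripts (bars start at 0, no error drawn). The longest makes up 61.4, 66.9, 53.4 and 55.2 TPM in control LFD, knockout LFD, control HFD and knockout HFD, with SDs from 22.3 to 30.0 TPM between mice.

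Of 16 genes of the prolactin and STAT5 pathway 15 were tested. *Socs2*, a feedback inhibitor induced by STAT5, fell on HFD in control mice, from 34.9 ± 22.0 to 12.8 ± 4.88 TPM (-1.57 ± 0.425, adjusted p = 0.0587 in edgeR), and in knockout mice, from 24.2 ± 7.59 to 17.5 ± 6.04 TPM (-0.82 ± 0.196, adjusted p = 0.0335). *Tnfsf11*, for the cytokine RANKL, fell in knockout mice on HFD, from 4.98 ± 5.51 to 0.651 ± 0.496 TPM. Of the 15, 1 was called in control mice and 2 in knockout mice, where 9.32% and 9.4% of all genes tested were called. None of the list rose in either diet comparison. Without control HFD replicate 11, 12, 14 or 15 or control LFD replicate 3 none fell in control mice. The genes of highest level were *Ghr*, for the growth hormone receptor, at 371 to 425 TPM over the group means, and *Nfib*, a transcription factor, at 50.6 to 69.0 TPM. *Jak2* averaged 31.5 to 41.3 TPM, *Stat5a* 15.4 to 18.3 TPM and *Stat5b* 9.52 to 9.86 TPM over the groups. RNA of the receptor, kinase and factor was thus found in all groups, and *Csn1s1*, *Csn2* and *Wap* were near 0 in most mice. Bulk values do not show which cells made this RNA, and its part in the casein levels was not tested.

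*Areg* was the most variable of the members. It lies at chr5:91568641-91577458 on the plus strand. The SD of its log2(TPM + 1) over the 20 libraries was 1.74, above that of 99% of the 15574 genes whose mean reached 0.5 TPM. It measured 77.1, 90.2, 104, 54 and 8.16 TPM in control mice on LFD and 105, 2.48, 85.7, 28.2 and 19.04 TPM in knockout mice on LFD. On HFD it measured 3.92, 5.72, 78.1, 22.3 and 3.30 TPM in control mice and 6.07, 128, 39.2, 38.7 and 29.0 TPM in knockout mice. Each group had mice below 10 TPM and mice above 75 TPM, and all groups overlapped. The fold change of knockout against control was 1.10 ± 0.89 on HFD and -0.62 ± 0.811 on LFD (log2, SE), at adjusted p of 0.999 and 0.936 in edgeR. Without control HFD replicate 13, HFD against LFD in control mice gave -3.15 at an adjusted p of 0.0659 in edgeR, which was up to 0.437 with other mice left out. The exact permutation p of *Areg* in that comparison was 0.0794, and 0.0317 without control HFD replicate 13 or 0.0397 without control LFD replicate 5. With other mice left out it was up to 0.151. For the knockout on HFD it was 0.214, and 0.0476 without control HFD replicate 13 and up to 0.365 with other mice left out.

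Of 14 tested genes of the oestrogen, progesterone and EGF receptor pathway, 3 fell on HFD in control mice and none rose. Over all genes tested there 4.9% were called lower. *Esr1*, for oestrogen receptor alpha, averaged 21.7 ± 7.56 TPM on LFD and 12.6 ± 2.79 TPM on HFD (-0.97 ± 0.217, adjusted p = 0.029 in edgeR). *Egfr*, for the receptor of amphiregulin, fell by 0.43 and *Greb1*, an oestrogen target, by 1.89 on the log2 scale, the latter with 0.707 and 0.424 TPM. *Greb1* thus passed the limit of 0.5 TPM only through the mice on LFD, and could only be called lower. Without control HFD replicate 12, 13 or 15 or control LFD replicate 2, 3 or 5, 1 of the 14 fell. In knockout mice *Esr1* fell from 26.6 ± 4.51 to 15.3 ± 3.89 TPM (-0.79 ± 0.184, adjusted p = 0.0286) and no other gene of the list was called. *Adam17*, the protease that releases amphiregulin from the cell surface, stood at 0.06 and 0.11 in the 2 diet comparisons.

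*Ltf* was found in all libraries and did not pass the test in any comparison. It lies at chr9:110921796-110945270 on the plus strand. It ranged from 14.4 to 34.1 TPM in control mice on LFD, from 8.84 to 25.7 TPM in knockout mice on LFD, from 12.7 to 31.1 TPM in control mice on HFD and from 9.24 to 33.1 TPM in knockout mice on HFD, with medians of 20.8, 14.9, 18.3 and 18.2 TPM. All groups overlapped. The fold change of knockout against control was -0.68 ± 0.25 on LFD (log2, SE, adjusted p = 0.929 in edgeR, exact permutation p = 0.119, and 0.0317 without knockout LFD replicate 7). With other mice left out the exact permutation p was up to 0.238. Neutrophil granules are the other known source of lactoferrin. Of 12 neutrophil granule genes, 4 exceeded the lowest *Ltf* level of 8.84 TPM in some library: *Lcn2*, which epithelia also make, reached 97.6 TPM, *S100a8* 19.7 TPM, *Mmp9* 14.96 TPM and *S100a9* 14.1 TPM. The other 8 reached at most 6.62 TPM, and *Ly6g* had no count in 17 libraries. The part of neutrophils in the *Ltf* level was not tested. Of the 12 genes 7 were tested, and in control mice on HFD *Mmp9* (-1.01) and *Lcn2* (-0.75) fell, where 4.9% of all genes were called lower.

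*Glycam1*, of the list of other milk genes, encodes a mucin of milk and of the venules through which lymphocytes enter lymph nodes, and the inguinal pad holds a lymph node. It fell in knockout mice on HFD, from 499 ± 203 to 66.8 ± 54.6 TPM (SD, n = 5, -2.82 ± 0.588, adjusted p = 0.0182 in edgeR). The lymph node genes summed to 150 to 371 TPM on LFD and 87.2 to 283 TPM on HFD in these mice, and 1 of 10 fell, *Cd3e* (-1.27), a call lost in 7 of 10 fits with 1 mouse left out, while *Cxcl13* (-1.22) did not pass. The part of lymph node RNA in the *Glycam1* difference was not tested. Control LFD replicate 1, with the least lymph node RNA of all libraries, held 80.1 TPM of *Wfdc18* and 227 TPM of *Csn3*, of which the first was the lowest of its group and the second was within its range. Of the remaining called genes of the lists in knockout mice, *Sbsn* (0.64, epidermis), *Lep* (2.41) and *Pi16* (0.96, fibroblasts) rose on HFD and *Col1a1* (-0.91) fell. The call of *Sbsn* was lost in 8 of 10 fits with 1 mouse left out, and those of the other 3 in none.

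Over the 20 libraries the members did not move as 1 group. Among the 15 pairs of the 6 members found in every library, 2 had an adjusted p under 0.05 by Pearson's r in a permutation test with 100000 resamples. *Csn3* and *Ltf* had r = 0.64 (adjusted p = 0.023, Spearman's rho 0.67, adjusted p = 0.017). Without the 2 libraries farthest from the median of *Csn3* r was 0.59, and around the group means it was 0.64. *Wfdc18* and *Elf5* had r = 0.61 (adjusted p = 0.023, rho 0.65, adjusted p = 0.017), and r = 0.69 without the 2 libraries farthest in *Wfdc18*. Around the group means r was 0.14, so the relation of *Wfdc18* and *Elf5* lay between the groups. *Prlr* and *Areg* had r = 0.52 (adjusted p = 0.091) and rho 0.60 (adjusted p = 0.032). *Csn3* and *Wfdc18*, both among the most abundant members, had r = -0.11 (adjusted p = 0.8) and rho -0.09 (adjusted p = 0.86).

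With the general epithelium sum, 2 of 9 members were correlated over the 20 libraries in a permutation test with 100000 resamples. *Ltf* had r = 0.56 (adjusted p = 0.034, rho 0.64, adjusted p = 0.017), and r = 0.57 without the 2 libraries farthest from the median of the sum, which were control HFD replicate 15 and knockout HFD replicate 21. *Prlr* had r = 0.64 (adjusted p = 0.021, rho 0.63, adjusted p = 0.017), and r = 0.43 (permutation p = 0.077) without those libraries. *Wfdc18* had r = 0.52 (adjusted p = 0.058) and rho 0.20, and r = 0.02 without them, so its relation rests on those 2 libraries. *Areg* had r = 0.49 (adjusted p = 0.058) and rho 0.52 (adjusted p = 0.065). For *Csn3* (r = 0.18) and *Elf5* (r = 0.12) the adjusted p was 0.65 and 0.69.

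The genes most like each member over the 20 libraries, by Pearson's r of log2(TPM + 1) among 15573 genes, are given as a description. For *Wfdc18* they were *Prr15l* (0.865), *Clca2* (0.845) and *Plag1* (0.836), and for *Elf5* they were *Plekhb1* (0.879), *Tcfap2c* (0.859) and *Itgb8* (0.85). *Csn3* was most like *Ctgf* (0.792), *Aldh1a3* (0.728) and *Gm561* (0.722). *Prlr* was most like *Tmem56* (0.914), *Slc7a2* (0.882) and *Mtmr7* (0.845). *Areg* was most like *Cdh11* (0.894), *Plod2* (0.794) and *Lyve1* (0.793), and *Ltf* was most like *Srsf4* (0.724), *Liph* (0.714) and *Vill* (0.71). For *Csn2*, *Tyro3* (0.798), *Nebl* (0.77) and *Fam134b* (0.758), and for *Csn1s1*, *AL772216.8* (0.923), *Gm11628* (0.846) and *Snora47* (0.839), the likeness rests on the few libraries in which these caseins were found.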

How the data were processed

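Total RNA of iWAT from 20 mice was depleted of ribosomal RNA and sequenced with a stranded kit. The estimated counts and the TPM values were deposited by the authors per transcript, made with Salmon 0.13.1 on Ensembl transcripts of NCBIM37 (mm9), without normalization between libraries. The submitters' processing notes also name STAR 2.5.3, but whether the values passed through that alignment is not clear from the files.

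Both were summed per gene with GENCODE vM1, which held 97.7% of 96533 transcripts (unmatched transcripts took 0.377% to 0.581% of counts). *Trf* and *Flg* are annotated more than once, and the gene of the higher level was used. Rounded counts were tested with edgeR 4.0.16 (TMM, quasi-likelihood test, mean of at least 0.5 TPM, Benjamini-Hochberg adjusted p under 0.1 as a call). DESeq2 1.42.0, which the methods name, and limma 3.58.1 were alternatives. For single members the means of log2(TPM + 1) were set against all 252 assignments of mice to 2 groups (two-sided exact permutation test). The fits were tested on simulated data. The pseudocount of 1 TPM understates changes of low genes. Each sample is a separate mouse. The floor of 3 counts covers counting error only, while the SEs and SDs include variation between mice.

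Members, lists, tests and alternatives were chosen with earlier results of these data known. Named were the 10 members, from each of 12 other lists the 2 tested genes of highest mean TPM and each called gene, *Tmem120a*, and the 3 most alike genes per member with a mean of at least 0.5 TPM. Chosen after their values were seen were the genes of the casein locus, *Jak2*, *Stat5a*, *Stat5b*, *S100a8*, *Ly6g*, *Krtdap*, *Krt2*, *Cxcl15*, *Cd14*, *Elf3*, *Krt23* and *Prom1*, the pairs of members and DESeq2 without a filter on low values. A gene that this rule names is not reported here. The labels give no batch.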

Additional observations from a re-analysis of the deposited data

Results flagged for a closer look

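In 13 of the 37 groups of 5 mice examined, 1 library lay far from the other 4 by Dixon's test, which chance would flag in about 1 of 20 groups. Groups whose other libraries are at 0 TPM are flagged by any single count. *Csn1s1* was far above the rest of its group in control LFD replicate 5 (5.77 TPM), knockout LFD replicate 7 (3.40 TPM), control HFD replicate 13 (0.0431 TPM) and knockout HFD replicate 20 (0.313 TPM). *Csn2* was so in control LFD replicate 5 (4.85 TPM), knockout LFD replicate 9 (9.53 TPM), control HFD replicate 13 (3.68 TPM) and knockout HFD replicate 18 (4.67 TPM). *Wap* stood out in control LFD replicate 2 (0.220 TPM) and *Lalba* in knockout HFD replicate 20 (0.805 TPM). Of the abundant members, *Elf5* stood out in control HFD replicate 14 (9.95 TPM), and *Areg* in control HFD replicate 13 (78.1 TPM) and knockout HFD replicate 18 (128 TPM). Control HFD replicate 13 was thus the highest of its group for *Csn1s1*, *Csn2* and *Areg*.

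The knockout effect on *Csn3* differed between the diets by 1.19 on log2(TPM + 1), at an exact permutation p of 0.0239 with genotypes exchanged within each diet. It was the only one of the 10 members under 0.05 in that test, which was not adjusted for the 10 members. Set against the general epithelium sum, the difference was 1.05 (exact permutation p = 0.0747).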

How the results depend on the processing

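No paired analysis was possible because the replicate numbers are not shared between the groups. The number of members called in the 5 comparisons stayed on its side in most other settings. DESeq2, with or without a filter on low values, called 1 for the knockout on HFD (*Wfdc18*) and 1 for the diet in knockout mice (*Csn3*), where edgeR called 0. Leaving out each library in turn, the count, *Csn1s1* included, was 1 to 3 for the diet in control mice (1 without control HFD replicate 12). For the diet in knockout mice it was 0 to 1 (1 without knockout LFD replicate 7). DESeq2 gave *Csn1s1* no adjusted p for the diet in control mice. Of 387 values of single members under other settings, 371 kept direction and side of the threshold, 3 lost and 6 gained significance, and 7 changed sign. Of 995 with 1 library left out, 898, 6, 18 and 73 did. None of the sign changes concerned a called fold change, and the cause was not tested.

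The sign changed for *Prlr* with the knockout on HFD (-0.19 with limma, -0.10 with length offsets), for *Areg* with diet in knockout mice (0.24 with limma), for *Lalba* with diet in control mice (-0.04 with a pseudocount of 0.1 TPM), and relative to the epithelium sum for *Ltf* (0.07) and *Prlr* (0.18) with diet in control mice and for *Lalba* between the genotype effects (-0.05). Leaving out single libraries, log2 fold changes ranged as follows. For the knockout on HFD, *Csn2* ran from -0.92 to 8.40, *Ltf* from -0.42 to 0.07 and *Prlr* from -0.23 to 0.30. For the knockout on LFD, *Csn2* ran from -0.67 to 3.81, *Wfdc18* from -0.10 to 0.24, *Elf5* from -0.02 to 0.40 and *Prlr* from -0.10 to 0.27. For diet in knockout mice, *Csn2* ran from -2.96 to 0.65 and *Areg* from -0.85 to 0.44. Between the genotype effects, *Csn1s1* ran from -1.11 to 5.23, *Csn2* from -2.97 to 7.16 and *Prlr* from -0.31 to 0.21. Differences of log2(TPM + 1) ranged, for the knockout on HFD, from -0.01 to 0.09 (*Csn1s1*), -0.06 to 0.81 (*Csn2*), -0.19 to 0.08 (*Lalba*), -0.42 to 0.01 (*Ltf*) and -0.40 to 0.07 (*Prlr*), and for the knockout on LFD from -0.52 to 0.40 (*Csn1s1*). For diet in control mice they ranged from -0.67 to 0.24 (*Csn2*), -0.07 to 0.10 (*Lalba*), -0.27 to 0.05 (*Ltf*) and -0.17 to 0.19 (*Prlr*), and in knockout mice from -0.84 to 0.12 (*Csn2*), -0.07 to 0.16 (*Lalba*) and -0.52 to 0.81 (*Areg*). Between the genotype effects they ranged from -0.34 to 0.59 (*Csn1s1*), -0.66 to 0.35 (*Csn2*) and -0.11 to 0.17 (*Lalba*).

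Over all genes, edgeR called 1 for the knockout on HFD, against 26 with no filter, 100 with DESeq2 (149 with no filter), 3 with limma, 5 with length offsets, 3 with all groups in 1 fit and up to 58 without knockout HFD replicate 21. On LFD it called 1, against 17 with DESeq2 (30 with no filter), 2 with limma and 2 with all groups in 1 fit. It called 1427 for diet in control mice, against 2205 with DESeq2 (2429 with no filter) and 780 to 1845 with a library left out, and 1476 in knockout mice, against 2247 (2401) and 753 to 1355. Between the genotype effects DESeq2 called 14 (29 with no filter) where edgeR called 0. With limma, 1640 genes were higher and 363 lower on HFD in control mice, against 676 and 751 in edgeR, and the median of all genes lay at 0.13 against -0.04. Depth limits *Csn1s1*, *Csn2*, *Wap* and *Lalba*, which had at most 3 counts in 10 or more libraries.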
